A study of Mus musculus with 4 samples.

Results

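The 10 genes described here encode the sugar and lactate transporters *Slc2a1*, *Slc2a3*, *Slc16a1* and *Slc16a3*, the lactate dehydrogenase subunits *Ldha* and *Ldhb*, and the proteins that govern pyruvate entry into mitochondria, *Pdk1*, *Pdk3*, *Pdha1* and *Mpc1*. They were taken by symbol from the 23420 genes of the count files, and all 10 were found and passed the filter on low counts, as did 14269 genes in all. They were chosen on their function and with their levels in wild type (WT) and *Patz1* knockout (KO) motor neurons (MNs) already known, so their levels and differences are given as a description, without a test.

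Glucose enters cells through facilitative carriers of the Slc2a family, among which *Slc2a1* encodes GLUT1, the broadly expressed carrier, and *Slc2a3* encodes GLUT3, the high-affinity carrier of neurons. Glycolysis turns glucose into pyruvate, which is either reduced to lactate by lactate dehydrogenase, with NAD+ regenerated, or carried into mitochondria and oxidised by pyruvate dehydrogenase for the citric acid cycle. Pyruvate dehydrogenase kinases switch that enzyme off by phosphorylating its E1 alpha subunit, and monocarboxylate transporters let lactate and pyruvate cross the cell membrane. In nervous tissue this branch point is known for the division of labour between cells that export lactate and neurons that use it, and several of its genes are textbook targets of the hypoxia-inducible factor HIF1.

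RNA-seq libraries came from cervical MNs made from E14 cells, a mouse embryonic stem cell (mESC) line, that were either WT or *Patz1* -/-, with 2 libraries per genotype. *Patz1* encodes a zinc finger protein that the study examined as an insulator of chromatin, and the comparison asks which genes differ in MNs that lack it. Both genotypes were kept with LIF and inhibitors of MEK1/2 and GSK3, formed embryoid bodies, and received retinoic acid and smoothened agonist. The KO cells were made by CRISPR/Cas9 as several clonal lines, and which of them gave a library is not in the labels, so genotype and clone cannot be told apart. Sample titles say ESC where source and cell type say MN, and the latter was used. By the study's methods, biological replicates of MNs are separate differentiations, while the labels give the libraries only a number, so p-values measure the spread between these libraries. The cultures were not sorted, and in such bulk RNA fewer cells of a type and less RNA per cell cannot be told apart.

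Total counts ran from 14769104 to 23881522 per library, and levels are given as CPM, counts per 1000000 of the TMM-scaled library size. Counts of *Patz1* itself were 1363 and 1499 for WT and 1154 and 714 for *Patz1* KO, that is 92.8 ± 1.96 against 45.1 ± 3.56 CPM (SD, n = 2), a log2 fold change of -1.04 with transcripts of the targeted gene left in both KO libraries. The study checked its KO mESC lines by genotyping and sequencing and reported loss of the PATZ1 protein by western blot. RNA counts do not measure that protein. The calls of marker genes below stand beside 24.1% of all 14269 tested genes called higher and 23.8% called lower in *Patz1* KO. All 14 neuron and MN markers had counts in every library, and their summed level was 3769 to 4049 CPM in WT and 4979 to 5455 CPM in *Patz1* KO, where 9 of the 14 were called higher and 1 lower. *Tubb3* alone had a mean of 1672 CPM in WT and 2419 CPM in *Patz1* KO and so weighs heavily in these sums. *Isl1*, *Map2*, *Elavl3* and *Elavl4* were not called, and *Snap25* was the gene called lower. Of 10 neural progenitor markers 4 were called higher and 3 lower, with sums of 1686 to 1775 CPM in WT and 1476 to 1510 CPM in *Patz1* KO. Markers of mesenchyme and muscle summed to 197 to 216 CPM in WT and 37.5 to 43.5 CPM in *Patz1* KO (7 of 8 tested lower, 0 higher), and endoderm markers to 44.2 to 52.2 and 7.99 to 8.20 CPM (6 of 8 lower, 0 higher). Astrocyte and oligodendrocyte markers summed to 152 to 159 CPM in WT and 234 to 254 CPM in *Patz1* KO (4 of 7 tested higher, 1 lower), with *Gfap* at no more than 1 count in any library. Pluripotency markers summed to at most 12.3 CPM and endothelial and blood markers to at most 13.6 CPM in any library, with 2 of 4 and 5 of 6 tested lower in *Patz1* KO and *Hba-a1* at 0 throughout. The part of these cell type differences in the levels of the 10 genes was not tested. These calls, like all below on genes outside the 10, come from the quasi-likelihood test of edgeR, with p adjusted by Benjamini-Hochberg over all 14269 genes and a threshold of 0.05.

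Stretches of promoter sequence are shown for 5 of the 9 genes with a window, all of which hold letters of the core to which HIF factors bind. *Slc16a3*, *Ldha* and *Pdk1* are among the genes with the largest differences between genotypes, and *Slc2a1* and *Ldhb* are set beside them as genes with smaller ones. The letters run 5′ to 3′ on the strand of the gene and end at the last base before a RefSeq transcript start on GRCm38.p6, and capitals mark ACGTG or GCGTG on that strand or, as CACGT or CACGC, on the opposite strand. Where matches on both strands overlap, the capitals read CACGTG.
*Slc2a1* chr4:119108655-119108744 plus strand: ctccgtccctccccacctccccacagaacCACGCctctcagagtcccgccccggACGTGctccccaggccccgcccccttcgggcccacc
*Slc16a3* chr11:120948977-120949066 plus strand: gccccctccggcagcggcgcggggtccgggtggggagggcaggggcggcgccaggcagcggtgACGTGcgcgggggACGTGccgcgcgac
*Ldha* chr7:46845654-46845803 plus strand: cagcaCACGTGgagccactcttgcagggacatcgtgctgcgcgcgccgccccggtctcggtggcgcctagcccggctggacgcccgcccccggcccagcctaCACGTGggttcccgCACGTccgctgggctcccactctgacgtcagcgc
*Ldhb* chr6:142507958-142508107 minus strand: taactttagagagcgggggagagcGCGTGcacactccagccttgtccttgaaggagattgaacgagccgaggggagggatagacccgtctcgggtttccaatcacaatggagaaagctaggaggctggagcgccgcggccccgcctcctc
*Pdk1* chr2:71873134-71873223 plus strand: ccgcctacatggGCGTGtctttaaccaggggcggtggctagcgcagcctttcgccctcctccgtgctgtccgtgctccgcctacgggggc
*Slc2a3* had no entry in the table of promoter windows.

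The 250 bases before each RefSeq start were searched on both strands for ACGTG and for GCGTG. They were also searched for the E-box CACGTG, which holds ACGTG on both strands, and for GGGAGGG, a G-rich run like that bound by MAZ and PATZ1. The other 9 genes had 12 windows between them. ACGTG was in 5 of the 12, those of *Slc2a1*, *Slc16a1*, *Slc16a3*, *Ldha* and *Pdk3*, against 16.6% of all 32851 windows of the same length, and GCGTG was in 8 of the 12 against 28.2%. ACGTG or GCGTG stood in 10 of the 12 windows and in at least 1 window of each of the 9 genes, against 38.6% of all windows. The 2 windows without either were the second starts of *Pdk1* and *Mpc1*. In *Ldha*, CACGTG began 145 and 48 bases before the start and a further ACGTG on the opposite strand 34 bases before it. In *Slc16a3*, ACGTG began 27 and 14 bases before the start, and in *Slc2a1* it began 36 bases before it with GCGTG on the opposite strand at 61 bases. In *Pdk1* and *Ldhb* a single GCGTG began 78 and 126 bases before the start. CACGTG was in 2 of the 12 windows (*Slc16a1* and *Ldha*) against 6.02% of all, and GGGAGGG in 4 (*Slc2a1*, *Slc16a1*, *Slc16a3* and *Ldhb*) against 19.7%. GC content of these windows went from 38.4% to 76.4%, where the median of all windows was 52.4%, and the shares above are not matched on it. Windows with these letters belonged to genes that were higher in *Patz1* KO (*Ldha*, *Slc16a3*) and to genes that were lower (*Slc16a1*, *Pdk3*).

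Within each pair or family of isoforms the levels moved unequally. *Slc2a3*, *Slc16a3*, *Ldha* and *Pdk1* were 6.01 to 10.3 times as high in *Patz1* KO as in WT, while their partners *Slc2a1* and *Ldhb* were 1.36 and 1.92 times as high and *Slc16a1* and *Pdk3* were 0.818 and 0.835 times as high. *Pdha1* was 2.06 times as high, and the libraries of *Mpc1* overlapped. The summed level of the 10 genes was 646 and 651 CPM in WT and 1636 and 1963 CPM in *Patz1* KO. Of all 14269 genes tested, 47.9% were called in either direction (24.1% higher and 23.8% lower in *Patz1* KO), and 9 of the 10 genes were called (7 higher, 2 lower), which the way they were chosen does not allow to be read further. In 74.2% of all genes the libraries of the genotypes did not overlap (37.0% higher, 37.2% lower), as held for the same 9 of the 10. The median log2 fold change of the 10 genes was 0.99, against -0.0014 over all genes tested. A log2 fold change above 2 was found in 4 of the 10 and in 143 of all genes (1.00%). Because the 10 genes were chosen with their values known, these shares and their median cannot be read further either.

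**Figure D1:**
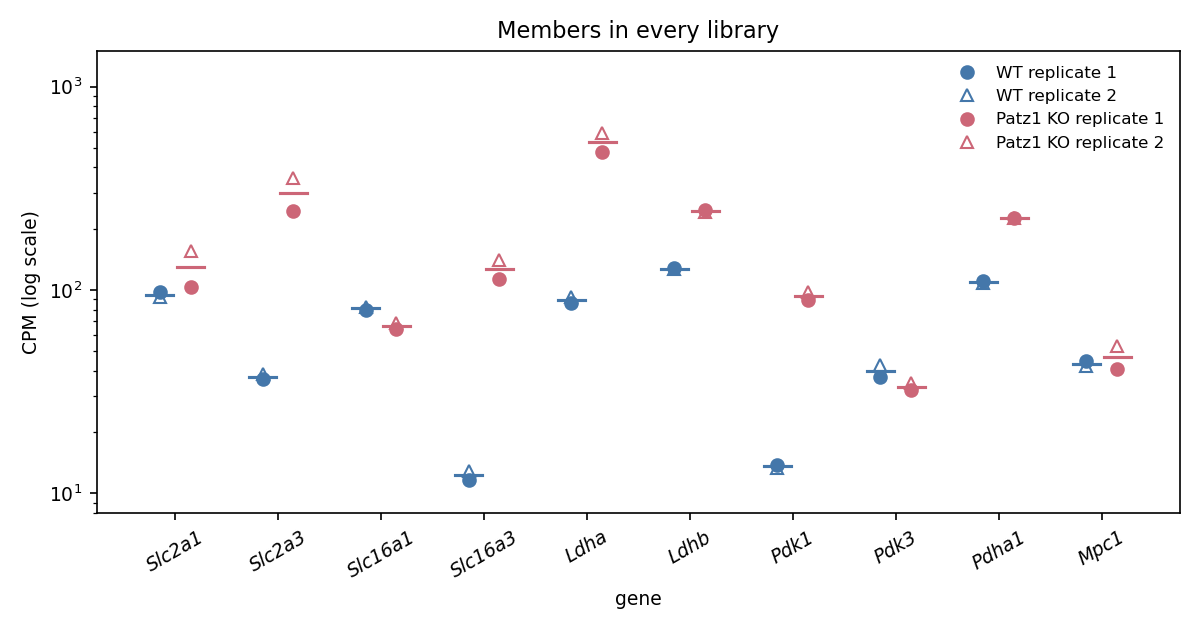
Level of each of the 10 genes in every library, in CPM on a log axis, with circles for replicate 1, open triangles for replicate 2 and a short line at the mean of the 2 libraries of a genotype. The *Patz1* KO libraries of *Slc2a3*, *Slc16a3*, *Ldha* and *Pdk1* lie far above those of WT, those of *Slc16a1* and *Pdk3* lie below, and those of *Mpc1* overlap with WT.

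Among the glucose carriers, *Slc2a3* transcripts differed more than those of *Slc2a1*. *Slc2a3* (ENSMUSG00000003153, chr6:122727809-122801640, minus strand of GRCm38) was counted 541 and 614 times in WT, as against 5902 and 5945 times in *Patz1* KO, which is 36.3 and 38.6 CPM against 243 and 354 CPM. Both KO libraries were thus above both WT libraries, by 7.98 times at the mean (37.4 ± 1.62 against 299 ± 78.4 CPM, SD, n = 2; log2 fold change 2.99, SE 0.14). Its KO libraries were also well apart from each other, and the log2 fold change went from 2.71 without *Patz1* KO replicate 2 to 3.25 without *Patz1* KO replicate 1.

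*Slc2a1* (ENSMUSG00000028645, chr4:119108711-119137983, plus strand) had 97.4 and 92.2 CPM in WT and 103 and 155 CPM in *Patz1* KO, from 1451, 1467, 2497 and 2607 counts. Its first KO library was close to the WT libraries and the second stood apart from all others. The means were 94.8 ± 3.64 and 129 ± 37.1 CPM (SD, n = 2), a log2 fold change of 0.44 (SE 0.13) that went down to 0.13 without *Patz1* KO replicate 2 and up to 0.72 without *Patz1* KO replicate 1, so that a single library decides its size. An antisense gene, *Gm12868*, overlaps its exons, and the strand setting of the counting is not given in the sources used here.

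Of 13 other sugar transporters 9 could be tested. Of these 4 rose and 0 fell (background 24.1% higher and 23.8% lower), with a median log2 fold change of 0.49. *Slc2a9*, a urate carrier of the same family, rose from 3 and 14 counts to 87 and 56 (log2 fold change 2.64, SE 0.42, adjusted p = 5.13e-05 by edgeR's quasi-likelihood test, Benjamini-Hochberg adjusted). *Slc2a8*, an intracellular glucose carrier, rose by a log2 fold change of 0.79 (adjusted p = 0.000267 by the same edgeR test) and *Slc2a6* by 0.79 (adjusted p = 0.0106). The summed level of these 13 genes was 35.5 to 36.2 CPM in WT and 46.1 to 55.9 CPM in *Patz1* KO. *Slc2a7* was at 0 in every library, and *Slc2a2*, *Slc5a1* and *Slc5a2* were also not tested.

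The monocarboxylate transporters *Slc16a3* and *Slc16a1* differed in opposite directions. *Slc16a3*, which encodes MCT4, the low-affinity carrier known for lactate export from glycolytic cells (ENSMUSG00000025161, chr11:120948480-120960868, plus strand), was counted 174 and 205 times in the WT libraries and 2739 and 2348 times in those of *Patz1* KO. Its levels were 11.7 and 12.9 CPM in WT and 113 and 139.9 CPM in *Patz1* KO. The mean was 10.3 times as high in *Patz1* KO (12.3 ± 0.856 against 126 ± 19.1 CPM, SD, n = 2; log2 fold change 3.36, SE 0.12). This was the largest fold change among the 10 genes and had the rank of 15 from the top of all genes tested.

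*Slc16a1*, which encodes MCT1, the widespread carrier that takes lactate up or releases it (ENSMUSG00000032902, chr3:104638668-104658462, plus strand), had 79.8 and 82.5 CPM in WT and 64.4 and 68.4 CPM in *Patz1* KO, from 1190, 1312, 1562 and 1148 counts. Both KO libraries were below both WT libraries, by a small margin, with means of 81.2 ± 1.85 and 66.4 ± 2.84 CPM (SD, n = 2; log2 fold change -0.29, SE 0.09). *Bsg*, which encodes basigin, the chaperone that brings both carriers to the membrane, was at 242 ± 7.24 CPM in WT and 273 ± 20.5 CPM in *Patz1* KO (log2 fold change 0.17, SE 0.09, adjusted p = 0.139 by edgeR's quasi-likelihood test, Benjamini-Hochberg adjusted). *Emb*, which encodes embigin, another such chaperone, fell from 45.1 ± 0.72 to 33.9 ± 5.35 CPM (log2 fold change -0.42, adjusted p = 0.00478 by the same edgeR test), and the antisense gene *Gm17509* overlaps it.

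Among the 14 tested of 16 other monocarboxylate transporters and chaperones, 2 rose and 5 fell (background 24.1% and 23.8%), with a median log2 fold change of -0.36. *Slc16a12*, a creatine carrier, fell from 144 and 204 counts to 18 and 8 (log2 fold change -4.14, SE 0.29, adjusted p = 3.16e-09 by edgeR's quasi-likelihood test, Benjamini-Hochberg adjusted). *Slc16a11* fell by 2.01 on the log2 scale (adjusted p = 0.00217 by the same edgeR test), at low counts of at most 27 in a library.

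Lactate dehydrogenase transcripts were higher in *Patz1* KO for both subunits, and more so for *Ldha*. *Ldha* (ENSMUSG00000063229, chr7:46841475-46855627, plus strand), which encodes the muscle-type subunit associated with the reduction of pyruvate to lactate, took 1279 and 1468 counts in WT, as against 11598 and 9932 in *Patz1* KO. That is 85.8 and 92.3 CPM in WT and 478 and 592 CPM in *Patz1* KO. The means were 89.0 ± 4.57 and 535 ± 80.4 CPM (SD, n = 2), 6.01 times as high in *Patz1* KO (log2 fold change 2.59, SE 0.11), and the genotypes were far apart.

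*Ldhb* (ENSMUSG00000030246, chr6:142490249-142507957, minus strand), which encodes the heart-type subunit associated with lactate use, had 128 and 127 CPM in WT and 248 and 243 CPM in *Patz1* KO, from 1912, 2013, 6007 and 4072 counts. Its replicates lay close together and the genotypes apart, at 127 ± 1.24 and 245 ± 3.54 CPM (SD, n = 2; log2 fold change 0.94, SE 0.09). Both genes have processed copies elsewhere in the genome. Of the 50-base stretches of their longest transcripts 16.6% (*Ldha*, with *Gm5452* and *Ldha-ps2* among the other carriers) and 27.0% (*Ldhb*, with *Gm5514*) also occur in another annotated gene. How the authors' counting split such reads is not given in the sources used here.

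Of the 8 tested among 11 other enzymes of pyruvate and lactate, 1 rose and 2 fell, under the background of 47.9%. *Gpt2*, the mitochondrial alanine aminotransferase that links pyruvate and alanine, rose from 89.4 ± 1.93 to 170.1 ± 5.23 CPM (log2 fold change 0.93, adjusted p = 1.25e-07 by edgeR's quasi-likelihood test, Benjamini-Hochberg adjusted). *Pck2*, the mitochondrial phosphoenolpyruvate carboxykinase, fell by 1.10 on the log2 scale (adjusted p = 8.50e-06) and *Me2*, the mitochondrial malic enzyme, by 0.33 (adjusted p = 0.00764), both by the same edgeR test. The antisense gene *Gm10876* overlaps *Pck2*.

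At the entry of pyruvate into mitochondria, the kinase *Pdk1* had the largest fold change. *Pdk1* (ENSMUSG00000006494, chr2:71873224-71903858, plus strand) took 206 and 213 counts in WT, as against 2170 and 1631 in *Patz1* KO, which gave 13.8 and 13.4 CPM against 89.5 and 97.2 CPM. Its libraries were tight within each genotype and the mean was 6.86 times as high in *Patz1* KO (13.6 ± 0.307 against 93.3 ± 5.46 CPM, SD, n = 2; log2 fold change 2.78, SE 0.11). Leaving out any library kept the log2 fold change between 2.72 and 2.84.

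*Pdk3* (ENSMUSG00000035232, chrX:93764607-93832201, minus strand), a kinase of the same family, had 37.5 and 42.5 CPM in WT and 32.1 and 34.8 CPM in *Patz1* KO, from 559, 677, 778 and 584 counts. Its KO libraries were below those of WT, with a gap between the genotypes that was smaller than the difference between the WT libraries (40.0 ± 3.57 against 33.4 ± 1.93 CPM, SD, n = 2; log2 fold change -0.26, SE 0.10). *Pdk2* had 72, 48, 91 and 63 counts (log2 fold change -0.06, adjusted p = 0.872 by edgeR's quasi-likelihood test, Benjamini-Hochberg adjusted), and *Pdk4*, with at most 7 counts in a library, could not be tested.

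*Pdha1* (ENSMUSG00000031299, chrX:160122209-160138413, minus strand), which encodes the E1 alpha subunit that these kinases phosphorylate, had 111 and 108 CPM in WT and 225 and 225 CPM in *Patz1* KO, from 1652, 1714, 5451 and 3781 counts. The replicates nearly coincided, at 109 ± 2.20 and 225 ± 0.406 CPM (SD, n = 2; log2 fold change 1.04, SE 0.09). Its exons overlap the antisense gene *Map3k15*, which itself had 25 to 77 counts per library. Of the 50-base stretches of the longest *Pdha1* transcript, 16.9% occur on either strand of another gene, *Map3k15* included. *Mpc1* (ENSMUSG00000023861, chr17:8282904-8297661, plus strand), which encodes a subunit of the mitochondrial pyruvate carrier, had 44.8 and 42.1 CPM in WT and 40.7 and 53.3 CPM in *Patz1* KO, from 668, 670, 986 and 894 counts. Its KO libraries lay on either side of WT (43.5 ± 1.91 against 47.0 ± 8.93 CPM, SD, n = 2; log2 fold change 0.11, SE 0.12), no direction held when single libraries were left out (-0.09 to 0.30), and 29.6% of its 50-base stretches occur elsewhere, *Mpc1-ps* included.

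The catalytic subunits that work with *Pdha1* in the pyruvate dehydrogenase complex, *Pdhb*, *Dlat* and *Dld*, were not called. Of the 13 tested among 15 further subunits, regulators and lipoylation genes, 3 rose, 1 fell and 9 were not called (background 47.9%), with a median log2 fold change of 0.04. *Pdhb*, the E1 beta subunit that pairs with *Pdha1* in the same enzyme, had 116 ± 3.75 CPM in WT and 119 ± 5.62 CPM in *Patz1* KO (log2 fold change 0.04, SE 0.09, adjusted p = 0.741 by edgeR's quasi-likelihood test, Benjamini-Hochberg adjusted). The log2 fold changes of *Dlat* (E2) and *Dld* (E3) were 0.07 and -0.18 (adjusted p = 0.534 and 0.132 by the same edgeR test). The rises were in *Nfu1*, an iron-sulphur scaffold needed for lipoate synthesis (log2 fold change 0.90, adjusted p = 7.99e-06), in *Mpc2*, the partner of *Mpc1* in the carrier (0.43, adjusted p = 0.00218, from 36.6 ± 0.129 to 49.4 ± 5.04 CPM), and in *Pdhx*, the E3-binding protein (0.28, adjusted p = 0.0217), all by that edgeR test. *Pdp2*, a phosphatase that reactivates the complex, fell from 34.7 ± 1.01 to 20.3 ± 1.16 CPM (log2 fold change -0.78, adjusted p = 1.73e-05 by that edgeR test). *Pdp1*, the other phosphatase, had a log2 fold change of 0.14 (adjusted p = 0.263) and its regulator *Pdpr* -0.11 (adjusted p = 0.459) by that edgeR test. The lipoylation genes *Lias*, *Lipt1* and *Lipt2* had log2 fold changes of -0.12, 0.24 and -0.16, and none was called. *Pdha2*, with at most 4 counts in a library, was not tested.

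**Figure D2:**
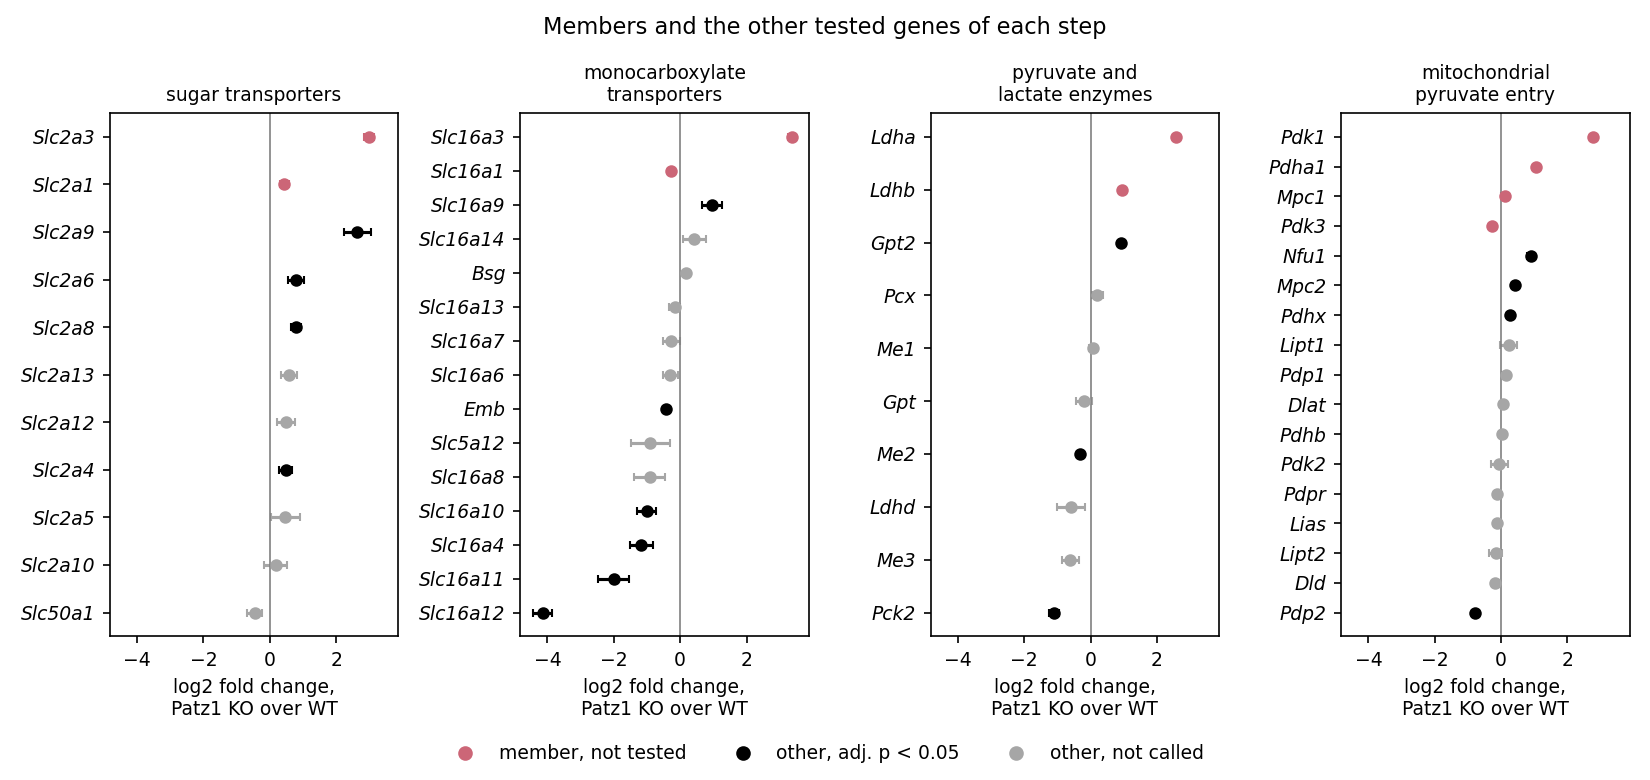
Log2 fold change of *Patz1* KO over WT with its SE from the edgeR fit, for the 10 genes (red) and for tested genes of the matching list (black at an adjusted p below 0.05, grey otherwise), in 1 panel per step. *Slc16a3* (3.36), *Slc2a3* (2.99), *Pdk1* (2.78) and *Ldha* (2.59) stand at the right of their panels, while most other pyruvate dehydrogenase genes lie near 0.

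Levels of different genes were compared as CPM per kilobase of exon (union of exons, GENCODE M21). In WT, *Ldhb* was highest at 81.2 ± 0.792, followed by *Pdha1* (29.3 ± 0.589), *Slc2a1* (27.0 ± 1.04) and *Ldha* (26.9 ± 1.38), then *Mpc1* (20.9 ± 0.919), *Slc16a1* (18.3 ± 0.419) and *Pdk3* (15.6 ± 1.39), all in CPM per kilobase with SD and n = 2. *Slc2a3* (5.17 ± 0.224), *Slc16a3* (2.31 ± 0.161) and *Pdk1* (1.75 ± 0.0394) were the lowest. Of the neighbours in this order, only the libraries of *Slc2a1* and *Ldha* overlapped. In *Patz1* KO, *Ldha* (162 ± 24.3) and *Ldhb* (156 ± 2.26) were highest and overlapped, *Pdha1* followed (60.3 ± 0.109), and *Slc2a3* (41.2 ± 10.8) overlapped with *Slc2a1* (36.8 ± 10.6), as *Slc16a3* (23.8 ± 3.59) did with *Mpc1* (22.6 ± 4.29). *Slc16a1* (15.0 ± 0.641), *Pdk3* (13.1 ± 0.752) and *Pdk1* (12.0 ± 0.702) were the lowest. The 3 lowest genes of WT were among the 4 with a log2 fold change above 2, a ratio in which a low WT level is the denominator. The order differed for KO minus WT in mean CPM. There *Pdk1* (79.7) and *Slc16a3* (114) were below *Pdha1* (116) and *Ldhb* (118), while *Slc2a3* (261) and *Ldha* (446) were above them. With the longest transcript in place of the union of exons, *Ldha* and *Mpc1* took ranks 2 and 3 in WT, at 49.1 and 45.2 CPM per kilobase, and in *Patz1* KO *Ldha* stood at 295 against 188 for *Ldhb*.

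**Figure D3:**
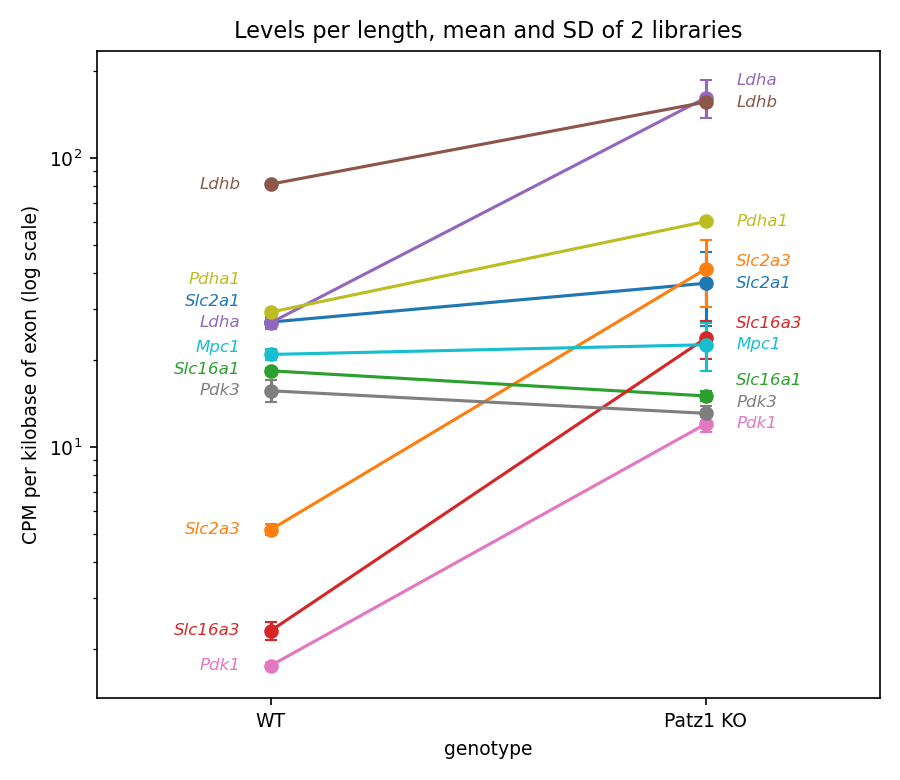
Mean level of each of the 10 genes in WT (left) and *Patz1* KO (right) in CPM per kilobase of exon on a log axis, with bars for the SD of 2 libraries. *Slc2a3*, *Slc16a3* and *Pdk1* start lowest in WT, at 1.75 to 5.17, and on this length *Ldha* overlaps with *Ldhb* in *Patz1* KO, at 162 and 156.

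The make-up of each family followed from these levels. On the length-scaled level, *Ldha* was 24.1% and 25.7% of *Ldha* and *Ldhb* together in WT and 47.8% and 53.6% in *Patz1* KO, a difference of 25.8 percentage points in the mean. *Slc2a3* was 15.3% and 16.8% of its sum with *Slc2a1* in WT and 53.4% and 52.5% in *Patz1* KO, so this share was far steadier between the KO libraries than the level of either gene. *Slc16a3* went from 10.9% and 11.5% of its sum with *Slc16a1* to 59.3% and 63.0%. *Pdk1* was 9.83% and 8.89% of the 4 *Pdk* genes in WT and 45.5% and 45.7% in *Patz1* KO, where *Pdk3* had 49.5% and 49.7% after 81.0% and 85.8% in WT. In every WT library these 4 genes were thus the smaller part of their family, and in *Patz1* KO *Ldha*, *Slc2a3* and *Pdk1* were close to parity with *Ldhb*, *Slc2a1* and *Pdk3* on the union of exons. With the longest transcript the share of *Ldha* was 32.5% and 34.4% in WT and 58.1% and 63.7% in *Patz1* KO, above that of *Ldhb*. The 4 *Pdk* genes together were at 18.7 ± 0.905 CPM per kilobase in WT and 26.3 ± 1.45 in *Patz1* KO, 1.41 times as high, which is far less than the 6.86 times of *Pdk1* alone. The summed level of *Ldha* and *Ldhb* was 2.94 times, that of *Slc2a1* and *Slc2a3* 2.43 times and that of *Slc16a1* and *Slc16a3* 1.88 times as high in *Patz1* KO, while the phosphatases *Pdp1* and *Pdp2* together were 0.890 times as high.

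**Figure D4:**
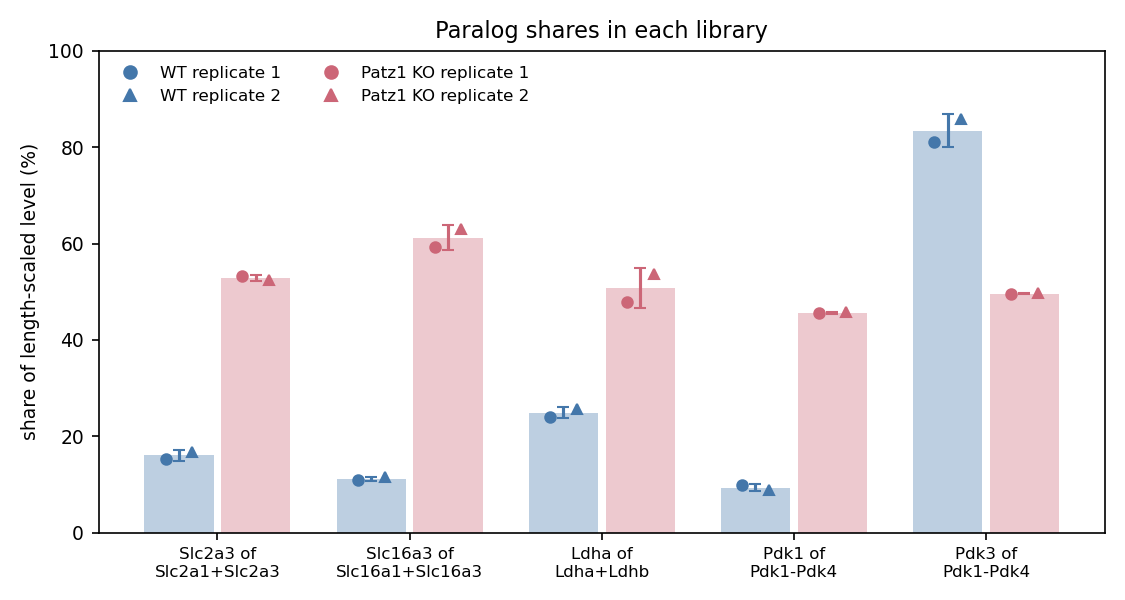
Share of a gene in the summed length-scaled level (CPM per kilobase of exon) of its pair or family, in percent, with a bar for the mean, error bars for the SD (n = 2) and a point for each library. The shares of *Slc2a3*, *Slc16a3*, *Ldha* and *Pdk1* lie between 8.89% and 25.7% in WT and between 45.5% and 63.0% in *Patz1* KO, and that of *Pdk3* goes the other way.

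The steps before and after these genes were read from lists of the same pathway. Of 22 tested glycolysis enzymes 15 rose and 2 fell, against a background of 24.1% and 23.8%, with a median log2 fold change of 0.84 and a summed level of 3082 to 3238 CPM in WT and 6812 to 7769 CPM in *Patz1* KO. *Eno2*, the neuronal enolase, rose by 2.83 on the log2 scale (adjusted p = 2.01e-12), *Pfkl*, the liver-type phosphofructokinase, by 1.91 (adjusted p = 2.57e-11) and *Tpi1*, triosephosphate isomerase, by 2.03 (adjusted p = 1.96e-10), all by edgeR's quasi-likelihood test, Benjamini-Hochberg adjusted. The summed level of the 16 citric acid cycle genes was 2246 to 2286 CPM in WT and 2177 to 2197 CPM in *Patz1* KO, and 1 rose (*Suclg1*, log2 fold change 0.66, adjusted p = 8.50e-06), 3 fell and 12 were not called in the same edgeR test. *Ogdh*, the E1 subunit of the 2-oxoglutarate dehydrogenase complex, fell by 0.60 on the log2 scale (adjusted p = 1.75e-05) and *Sdha* by 0.24 (adjusted p = 0.0278) in that edgeR test. Of the 9 genes of the shuttles that move cytosolic NADH electrons into mitochondria, the alternative to lactate dehydrogenase for NAD+ regeneration, 2 rose and 2 fell. *Gpd1l* rose by 0.46 on the log2 scale (adjusted p = 0.0006), while *Gpd2* fell by 0.55 (adjusted p = 0.000177, overlapped by the antisense gene *A930012O16Rik*) and *Slc25a13* by 0.42 (adjusted p = 0.0036), all in that edgeR test. All lists, of pathways and of markers, were written with earlier results of these libraries known, so their counts are not independent of those results.

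Of 10 HIF factors and oxygen sensors 3 rose, 3 fell and 4 were not called (background 24.1% higher and 23.8% lower), with a median log2 fold change of 0.05. *Hif1a*, the regulated subunit of HIF1, fell from 230 ± 12.3 to 181 ± 13.3 CPM (log2 fold change -0.34, SE 0.09, adjusted p = 0.00444 by edgeR's quasi-likelihood test, Benjamini-Hochberg adjusted), and *Gm15283* and *Gm49321* overlap it. *Epas1*, which encodes HIF2 alpha, fell from 140 and 193 counts to 20 and 11 (log2 fold change -3.83, adjusted p = 4.39e-09 by the same edgeR test). *Egln3*, a prolyl hydroxylase that is itself a known HIF target, rose by 2.02 on the log2 scale (adjusted p = 4.80e-10) and *Vhl*, which marks HIF for degradation, by 1.09 (adjusted p = 3.20e-08), both in that edgeR test. HIF1 is controlled mainly at the protein level, which these libraries do not measure.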

How the data were processed

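The authors mapped reads of stranded, rRNA-depleted total RNA libraries to mm10 and deposited raw counts per gene symbol, without normalization. The submitters' processing notes name TopHat2 2.1.1, Bowtie2 2.3.1, featureCounts 1.6.2 and DESeq2, while the annotation and the strand setting of the counting are not given in the sources used here. The counts as deposited were scaled with TMM in edgeR 4.0.16 (limma 3.58.1, R 4.3.3), filtered with filterByExpr (minimum count 10) and fitted by genotype alone with the quasi-likelihood test. DESeq2 1.42.0 (Wald test) was run as an alternative, beside other scalings and filters, the replicate number as a block and leaving out each library. Each SE was derived from the fold change and its F statistic. All counts are of reads without molecular identifiers.

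The 10 genes and all lists were chosen with earlier results of these data known. The text names the 10 genes, *Patz1*, *Bsg*, *Emb*, *Hif1a*, from each pathway list the 3 genes of smallest p, and every gene of the pyruvate dehydrogenase list, and genes that overlap them or could not be tested are named beside them. Neuron markers and further glycolysis enzymes are named by their values in these libraries. A gene of the list of other monocarboxylate transporters is counted in the totals and not reported here by itself. Library totals were 14769104 and 15728158 (WT) and 23881522 and 17402342 (*Patz1* KO), and replicates differed by more than sampling noise (chi-square per gene 10.5 in WT, 23.4 in *Patz1* KO). With 2 libraries against 2, single-gene permutation tests cannot reach 0.05 and none was run. Gene models came from GENCODE M21 on GRCm38 and promoter windows from RefSeq (GRCm38.p6). On simulated counts edgeR recovered 90 of 102 genes changed by 1 and 95 of 97 changed by 2 on the log2 scale among 14054 genes, with 3 false calls among 188. In that simulation few genes were changed, and both genotypes were drawn with the same fitted spread of each gene. In the libraries here 47.9% of genes were called, so the simulation does not give the error rate among those calls. Python 3.11.15, numpy 2.4.6, pandas 2.3.3 and matplotlib 3.10.9 were used for summaries and plots.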

Additional observations from a re-analysis of the deposited data

How the results depend on the processing

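With 2 libraries per genotype the error of a gene borrows from all genes, and small differences rest on single libraries. Over 10 alternatives, the log2 fold changes of the 10 genes kept their direction except for *Mpc1*, which went from -0.0898 without *Patz1* KO replicate 2 to 0.298 without *Patz1* KO replicate 1, and their median went from 0.96 (library size alone) to 1.015 (no filter on low counts). *Slc16a1* and *Pdk3* were not called when either WT library was left out, *Pdk3* also not without *Patz1* KO replicate 1 or without a filter, *Slc2a1* not without *Patz1* KO replicate 2, while *Mpc1* was called without *Patz1* KO replicate 1, and *Slc2a1*, *Slc16a1* and *Pdk3* were not called by DESeq2's Wald test. The number of all genes called was 6837, and 4521 to 7816 with single libraries left out. The calls in the lists of other genes moved for sugar transporters from 4 to 2, for monocarboxylate transporters and chaperones from 7 to 4 and for the citric acid cycle from 4 to 2 under DESeq2's Wald test. With single libraries left out they were 3 to 7 for monocarboxylate transporters (3 without WT replicate 2), 2 to 6 for other pyruvate and lactate enzymes (6 without *Patz1* KO replicate 2), 2 to 6 for the citric acid cycle (2 without either WT library) and 2 to 4 for the NADH shuttles (2 without WT replicate 2). Such fits assume that the lone library varies like those of the other genotype, and the cause of these shifts was not tested. The difference in share between genotypes was 41.6 points for *Slc2a3* as a share of raw counts instead of 36.8, 52.5 (longest transcript) and 52.3 (raw counts) instead of 49.99 for *Slc16a3*, and 39.4 (longest transcript) and 47.9 (raw counts) instead of 36.2 for *Pdk1*, where length scaling itself sets the shift. Samples with the same replicate number did not deviate together (correlation 0.04), so the numbers were not taken as pairs. With the replicate number as a block, 7363 genes were called and the median of the 10 genes was 0.99.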

Other observations

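After the values had been seen, the *Patz1* KO libraries were compared with each other over the 9792 genes with a mean of at least 10 CPM. The ratio of *Patz1* KO replicate 2 to replicate 1 was 1.51 for *Slc2a1*, 1.46 for *Slc2a3*, 1.31 for *Mpc1* and 1.24 for both *Slc16a3* and *Ldha*, where the median gene had 0.985 and the percentiles 5 and 95 were 0.807 and 1.27. Only 0.98% of these genes had a larger ratio than *Slc2a1* and 1.41% a larger one than *Slc2a3*. In all, 5 of the 10 genes had a ratio above 1.2, as did 8.35% of the genes. In contrast, *Ldhb* (0.98), *Pdha1* (1.00) and *Pdk1* (1.09), which also differed between genotypes, were nearly equal in the KO libraries. The WT libraries differed little for the same genes, with ratios of 0.947 for *Slc2a1* and 1.06 for *Slc2a3*. Of 16 glycolysis enzymes at this level, 5 had a ratio above 1.2, among them *Hk2* (1.30), *Pfkfb3* (1.26), *Pgk1* (1.24) and *Aldoa* (1.23). The enzymes did not all go this way: 10 of the 16 had a ratio above 1, as did 45.3% of the genes. *Pfkfb4* (0.74) and *Pfkm* (0.86) had the lowest ratios of the 16. Of the genes named with a ratio above 1.2, *Slc2a1*, *Mpc1* and *Hk2* had log2 fold changes between genotypes of 0.44, 0.11 and 0.21. Those of *Slc2a3*, *Slc16a3* and *Ldha* were 2.99, 3.36 and 2.59, and those of *Pfkfb3*, *Pgk1* and *Aldoa* were 1.22, 2.26 and 1.45. With 2 KO libraries, these ratios have no replicate of their own and were not tested.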
